A study of Homo sapiens with 6 samples.

Results

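The cyclin-dependent kinase (CDK) inhibitors are 8 genes here: CDKN2A, CDKN2B, CDKN2C and CDKN2D of the INK4 family, CDKN1A, CDKN1B and CDKN1C of the CIP/KIP family, and CDKN3. They were found by symbol among the 38557 genes listed for each library. All 8 had a row, and all 8 passed the filter on low counts that left 16107 genes for testing. The family was selected on the CPM of CDKN2B (counts scaled to a common library total) in the culture media compared here, so the values of CDKN2B are given as a description and without a test. RNA was sequenced from wild-type cardiomyocytes made from an established line of human induced pluripotent stem cells, WTC11. The cells were kept either in RPMI with B27, a serum-free supplement, or in DMEM with fatty acids, and each medium had 3 libraries that the labels call biological replicates. All cells come from 1 line. The composition of the media and the time spent in them are not given in the sources used here. Each library held 23232324 to 31035389 gene counts.

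INK4 proteins bind CDK4 and CDK6 and keep them from pairing with D-type cyclins. CIP/KIP proteins bind complexes of cyclins with CDKs, mainly those of CDK2, and block their activity. Active CDKs phosphorylate the retinoblastoma protein RB1, which releases E2F transcription factors and opens the way to DNA synthesis. CDKN3 is a phosphatase that removes an activating phosphate from CDKs, and its transcript belongs to those made by dividing cells. Cardiomyocytes leave the cell cycle as they mature, and CDK inhibitors are among the genes known for that exit.

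CDKN2A (chromosome 9, 21967752 to 21995324) and CDKN2B (chromosome 9, 22002903 to 22009313) lie next to each other on the minus strand, with 7578 bases between them (RefSeq genes, GRCh38.p14; the submitters' notes name hg38). They were also the pair of members with the largest fitted differences between media. CDKN2A has separate starts for its INK4a transcript (the start nearer the gene's 3′ end) and its ARF transcript, and ARF is not an INK4 inhibitor. The counts are per gene and cannot separate these transcripts. CDKN2B-AS1, an antisense RNA of the same locus, runs over the whole 6411 bases of CDKN2B and over 534 bases of CDKN2A, on the plus strand. The strand setting of the counting is not given in the sources used here, so reads from the antisense RNA and from these genes may not be fully separated.

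The starts of these 2 genes and of CDKN3 are shown because CDKN2A and CDKN2B had the largest differences, and because CDKN3 belongs to the genes of dividing cells. Each sequence is the coding strand from 250 bases before the start to 50 bases after it, from RefSeq on GRCh38.p14, where 7 of the 8 members had an entry. Capitals mark matches on either strand to the GC box GGGCGG (bound by SP1), the SMAD element CAGAC, the E2F site TTTNGCGC or TTTGAA, the core of the cell cycle homology region of genes expressed in G2 and mitosis. No overlap between different motifs occurred in these 4 sequences.
CDKN2B, chr9:22009256-22009555, minus strand: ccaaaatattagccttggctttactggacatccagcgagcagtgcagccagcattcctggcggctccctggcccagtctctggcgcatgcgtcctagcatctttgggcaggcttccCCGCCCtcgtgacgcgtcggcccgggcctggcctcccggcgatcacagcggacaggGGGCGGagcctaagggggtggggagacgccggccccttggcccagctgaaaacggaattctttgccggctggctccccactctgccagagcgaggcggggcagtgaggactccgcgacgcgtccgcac
CDKN2A at the INK4a start, chr9:21974808-21975107, minus strand: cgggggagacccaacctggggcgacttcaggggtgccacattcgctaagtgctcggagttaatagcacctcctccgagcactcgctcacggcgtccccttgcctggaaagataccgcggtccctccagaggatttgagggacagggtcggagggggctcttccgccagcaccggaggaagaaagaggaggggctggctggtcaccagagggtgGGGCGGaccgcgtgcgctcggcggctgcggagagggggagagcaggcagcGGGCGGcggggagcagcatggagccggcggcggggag
CDKN2A at the ARF start, chr9:21995275-21995574, minus strand: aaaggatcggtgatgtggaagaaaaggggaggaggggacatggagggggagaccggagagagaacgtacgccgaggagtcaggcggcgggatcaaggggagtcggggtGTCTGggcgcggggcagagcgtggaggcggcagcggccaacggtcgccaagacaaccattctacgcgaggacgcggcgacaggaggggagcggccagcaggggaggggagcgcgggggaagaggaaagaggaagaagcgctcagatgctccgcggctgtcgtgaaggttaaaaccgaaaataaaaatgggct
CDKN3, chr14:54396757-54397056, plus strand: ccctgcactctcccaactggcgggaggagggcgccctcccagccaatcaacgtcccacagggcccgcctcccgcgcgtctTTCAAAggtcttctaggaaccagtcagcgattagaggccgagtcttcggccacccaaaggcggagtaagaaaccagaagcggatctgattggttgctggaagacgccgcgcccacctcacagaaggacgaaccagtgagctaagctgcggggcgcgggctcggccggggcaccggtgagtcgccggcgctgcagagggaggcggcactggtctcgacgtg
The CDKN2B window and the INK4a window each held 2 GC boxes, and 44.9% of 34796 distinct promoter windows of the same length held at least 1. The ARF window held 1 SMAD element, which 45.3% of all windows held. The CDKN3 window held 1 TTTGAA, written TTCAAA on the coding strand, against 15.2% of all windows. No window of these 4 held the E2F site as spelled here, which 1.78% of all windows held. A match is a run of letters and not a measured binding site.

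Per kilobase of merged exon (GENCODE release 29), CDKN1A was the most abundant inhibitor in both media, at 189.9 ± 42.9 CPM per kilobase in RPMI plus B27 and 198.7 ± 36.6 in the DMEM medium (3 libraries each, ± SD). In RPMI plus B27 the next were CDKN1B at 18.4 ± 1.45, CDKN2B at 17.5 ± 1.68 and CDKN1C at 13.0 ± 3.25 CPM per kilobase. CDKN1B and CDKN2B did not differ there beyond their spread, and neither did CDKN2B and CDKN1C in their ranges, 16.1 to 19.3 and 10.2 to 16.6. CDKN3 followed at 7.93 ± 1.30 and CDKN2D at 5.15 ± 1.20 CPM per kilobase, and their ranges did not overlap. CDKN2C at 1.46 ± 0.36 and CDKN2A at 1.15 ± 0.46 CPM per kilobase were lowest and overlapped, and their order turned with the lengths of the smaller basic GENCODE set.

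In DMEM plus fatty acids CDKN2B stood at rank 7 of 8 instead of rank 3, with 1.61 ± 0.73 CPM per kilobase. CDKN1B at 16.4 ± 0.72 and CDKN1C at 12.8 ± 0.50 CPM per kilobase were at ranks 2 and 3 there and did not overlap. Below them came CDKN3 at 5.25 ± 4.11, CDKN2D at 2.79 ± 0.50 and CDKN2C at 1.88 ± 1.83 CPM per kilobase, and these 3 overlapped each other and CDKN3 and CDKN2C had SDs close to their means. CDKN2B, at 0.987 to 2.41, overlapped these 3 but not CDKN2A, which was lowest at 0.0854 ± 0.0763 CPM per kilobase.

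**Figure D1:**
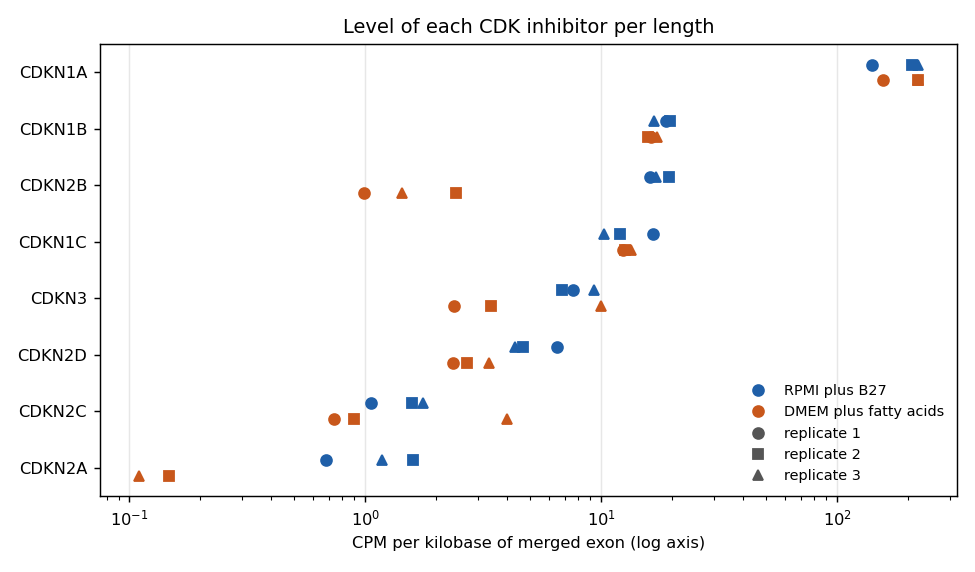
Level of each inhibitor per length, as TMM-scaled CPM per kilobase of merged exon on a log axis, with 1 point per library (blue, RPMI plus B27; orange, DMEM plus fatty acids; marker shape, replicate number). CDKN2B moves from 16.1 to 19.3 down to 0.987 to 2.41, and CDKN2A of DMEM plus fatty acids replicate 1 had 0 counts and is not drawn.

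CDKN2B encodes p15, the INK4 protein known for its induction by transforming growth factor beta (TGF-beta). It stood at 65.2, 78.5 and 69.2 CPM in replicates 1 to 3 of RPMI plus B27 and at 4.00, 9.80 and 5.81 CPM in those of DMEM plus fatty acids (here and below CPM is scaled by TMM, a factor that corrects library totals for composition). All 3 libraries of DMEM plus fatty acids lay far below all 3 of RPMI plus B27. The means were 71.0 ± 6.82 and 6.54 ± 2.96 CPM (SD, n = 3 each), a 10.9-fold lower level in DMEM plus fatty acids. Between libraries of the same replicate number the ratio was 16.3-fold, 8.01-fold and 11.9-fold. The fitted log2 fold change, always given as DMEM plus fatty acids relative to RPMI plus B27, was -3.43 ± 0.32 (SE). It rested on 93 to 293 counts per library in DMEM plus fatty acids and 1730 to 1857 in RPMI plus B27, so counting error is small beside the spread between libraries.

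CDKN2A had 2.94, 6.89 and 5.11 CPM in RPMI plus B27 and 0, 0.635 and 0.474 CPM in DMEM plus fatty acids. The media did not overlap for this gene either, but the counts were few, with 78, 162 and 137 in RPMI plus B27 and 0, 19 and 16 in DMEM plus fatty acids. The count of 0 allows up to 0.129 CPM (3 counts, counting error only). The log2 fold change was -3.68 ± 0.81 (SE) with an adjusted p of 0.0818 (edgeR quasi-likelihood test, Benjamini-Hochberg over all 16107 genes), so CDKN2A was not called. With the replicate number as a block it was -3.87 ± 0.57 with an adjusted p of 0.0253, and over the 11 alternatives that could test it the adjusted p ran from 3.08e-05 to 0.201. CDKN2A was called in 3 of those 11, which were the block, the DESeq2 Wald test and no filter on low counts, and in 0 of the 6 that left out 1 library. Per 100 counts of CDKN2B there were 4.51 to 8.78 counts of CDKN2A in RPMI plus B27 and 0 to 8.16 in DMEM plus fatty acids, ranges that overlap.

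Other transcripts of the locus were measured in the same libraries. CDKN2B-AS1 had 22, 8 and 5 counts in RPMI plus B27 and 1, 0 and 1 in DMEM plus fatty acids, too few to enter the test. MTAP, a methionine salvage enzyme encoded beyond CDKN2A, had 18.04 to 20.8 CPM in RPMI plus B27 and 19.3 to 22.1 in DMEM plus fatty acids (log2 fold change 0.08 ± 0.14, adjusted p 0.807). DMRTA1, on the other side of CDKN2B, had -0.52 ± 0.27 with an adjusted p of 0.371, and its media overlapped.

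The other 2 INK4 genes had smaller fitted differences, which were not tested against that of CDKN2B. CDKN2D, which encodes p19, had 9.80, 6.98 and 6.45 CPM in RPMI plus B27 and 3.53, 4.05 and 5.01 CPM in DMEM plus fatty acids. Every library of DMEM plus fatty acids was below every library of RPMI plus B27. The log2 fold change was -0.88 ± 0.26 (SE), with an adjusted p of 0.148 by edgeR and 0.0246 by DESeq2, the 1 of its 12 alternatives that called it (range 0.0246 to 0.352).

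CDKN2C, which encodes p18, had 3.50, 5.23 and 5.82 CPM in RPMI plus B27 and 2.45, 2.98 and 13.2 CPM in DMEM plus fatty acids. Replicates 1 and 2 of DMEM plus fatty acids were below all of RPMI plus B27 and replicate 3 was above all of them. The log2 fold change was 0.37 ± 0.64 (SE, adjusted p 0.803), and it was -0.83 ± 0.34 without DMEM plus fatty acids replicate 3 (adjusted p 0.288) and -0.02 ± 0.42 with the replicate block. For CDKN2C 1 library therefore set the sign.

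**Figure D2:**
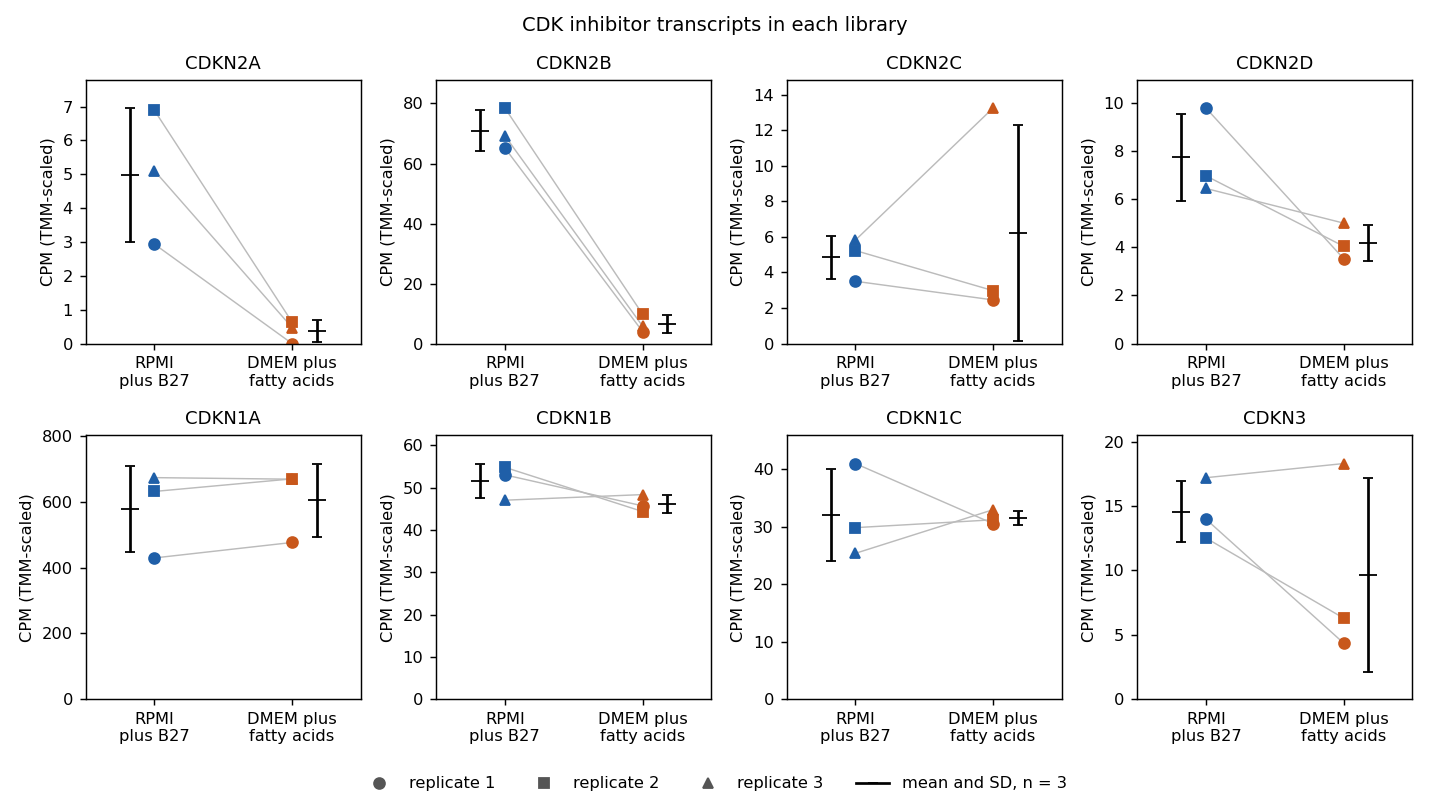
TMM-scaled CPM of the 8 inhibitors in each library, with 1 panel per gene on its own linear axis from 0, lines joining libraries with the same replicate number, and bars for the mean and SD of 3 libraries. CDKN2A, CDKN2B and CDKN2D do not overlap between media, while replicate 3 of DMEM plus fatty acids stands above the other 2 for CDKN2C (13.2 CPM) and CDKN3 (18.3 CPM).

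The CIP/KIP genes were not called, and their media overlapped. CDKN1A encodes p21, which is known to be induced by DNA damage. It had 430.0, 632.5 and 674.7 CPM in RPMI plus B27 and 477.1, 670.9 and 669.9 CPM in DMEM plus fatty acids. In both media replicate 1 was lowest, and the media overlapped (log2 fold change 0.07 ± 0.22, SE, adjusted p 0.901).

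CDKN1B encodes p27, whose level is known to be set largely by protein turnover. It had 53.01, 54.8 and 47.0 CPM in RPMI plus B27 and 45.7, 44.3 and 48.3 CPM in DMEM plus fatty acids. It was the most even member over the 6 libraries, with ranges that overlapped between media (-0.16 ± 0.11, adjusted p 0.507).

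CDKN1C encodes p57 and is an imprinted gene (chromosome 11, 2883218 to 2885775). It had 41.0, 29.9 and 25.4 CPM in RPMI plus B27 and 30.6, 31.2 and 33.0 CPM in DMEM plus fatty acids. The libraries of DMEM plus fatty acids lay within the range of RPMI plus B27 (-0.02 ± 0.19, adjusted p 0.962). PHLDA2, an imprinted neighbour of CDKN1C, was lower in DMEM plus fatty acids, with 3.20, 1.32 and 1.08 CPM against 0.172, 0.234 and 0.178 CPM (-3.23 ± 0.54, adjusted p 0.0442). The counts of PHLDA2 were few, with 85, 31 and 29 in RPMI plus B27 and 4, 7 and 6 in DMEM plus fatty acids. It could therefore not be tested with at least 10 counts in every library. The call of PHLDA2 was lost without RPMI plus B27 replicate 1 or 2 and without any 1 library of DMEM plus fatty acids. PHLDA2 had the only call among the 6 tested neighbours of the 9p21 and 11p15 loci, and KCNQ1OT1, the antisense RNA of the CDKN1C domain, had -0.02 ± 0.37 (adjusted p 0.987).

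CDKN3 had 13.98, 12.5 and 17.2 CPM in RPMI plus B27 and 4.35, 6.29 and 18.3 CPM in DMEM plus fatty acids. Replicates 1 and 2 of DMEM plus fatty acids were below all of RPMI plus B27, and replicate 3 was above all. The log2 fold change was -0.59 ± 0.50 (SE, adjusted p 0.581). Without DMEM plus fatty acids replicate 3 it was -1.44 ± 0.27 with an adjusted p of 0.102, so CDKN3 was not called there either.

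CDKN2B, for which the family was picked, is left out of the counts that follow. Of the other 7 inhibitors, 0 passed the threshold of 0.05 in the fit over all genes. Of all tested genes 1.36% passed in either direction, 1.07% as lower and 0.292% as higher. At an unadjusted p under 0.05 there were 2 of these 7, beside 17.7% of all tested genes. Among these 7, 2 did not overlap between media, CDKN2A and CDKN2D, both lower in DMEM plus fatty acids, beside 25.6% of all tested genes in either direction and 12.8% as lower. Their median log2 fold change was -0.16, beside 0.01 for all genes. With the replicate block 1 of the 7 passed, CDKN2A, where 4.78% of all genes passed and 3.42% did so as lower. As with all 6 libraries, 0 of these 7 were called when any 1 library was left out. The count of all called genes was then 3 to 131, in place of 219. It was lowest without RPMI plus B27 replicate 2 (4 genes) and without DMEM plus fatty acids replicate 3 (3 genes). The log2 fold change of CDKN2B was -3.36 and -3.35 in those 2 fits.

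**Figure D3:**
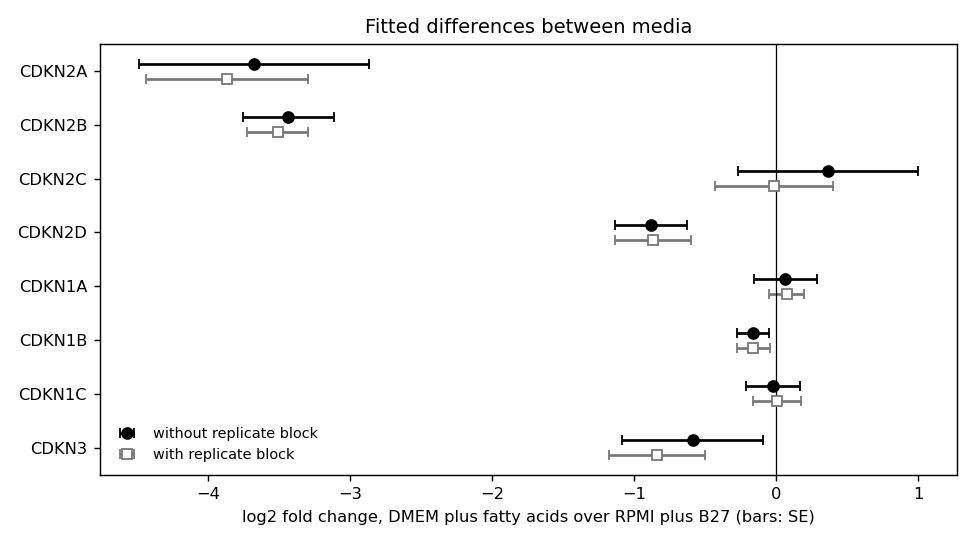
Fitted log2 fold changes of the 8 inhibitors, DMEM plus fatty acids relative to RPMI plus B27, with bars for 1 SE, from edgeR without (filled) and with (open) the replicate number as a block. CDKN2A (-3.68) and CDKN2B (-3.43) lie apart from the other 6, which lie between -0.88 and 0.37 without the block.

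Bulk libraries cannot tell fewer cells of a type from less RNA per cell, and the summed stromal, smooth muscle and epicardial markers were lower along with CDKN2B. The endothelial sum was not, with 37.9 to 241.1 CPM in RPMI plus B27 and 115.6 to 463.7 in DMEM plus fatty acids, which overlap. Nearly all of that sum came from KDR, a receptor for vascular growth factors (27.5 to 238.9 CPM against 114.5 to 463.2). Of the 4 tested endothelial markers only KDR was fitted higher, and 3 were fitted lower. The median log2 fold change of these 4 was -1.55. The 14 fibroblast and stromal markers summed to 9428, 6092 and 5059 CPM in RPMI plus B27 and to 944.0, 2210 and 2179 CPM in DMEM plus fatty acids. Of these 14, 7 were called lower, among them COL1A1 (collagen I, -2.72 ± 0.38) and DCN (decorin, -5.81 ± 0.81), and 13 did not overlap between media, beside 1.07% and 12.8% of all tested genes that were called or did not overlap as lower. With the block 11 were called lower. Without RPMI plus B27 replicate 1 the count was 2, without replicate 3 of that medium 7, and 0 without RPMI plus B27 replicate 2 or any 1 library of DMEM plus fatty acids. No defining stromal marker was at 0 in every library of a medium, and their median log2 fold change was -2.96. DDR2 was the only stromal marker fitted higher (0.31 ± 0.48, adjusted p 0.779). Summed levels also did not overlap for 7 smooth muscle markers (1673 to 2111 CPM against 412.1 to 1256) and 8 epicardial markers (1972.6 to 2395 against 882.6 to 1098). Nearly all of the epicardial sum came from the keratins KRT8, KRT18 and KRT19, and the other 5 markers summed to 4.47 to 10.9 CPM against 1.10 to 2.85. In each of these lists 1 gene was called lower, LMOD1 (leiomodin, -1.62 ± 0.21) and KRT8 (keratin 8, -1.10 ± 0.17), and with the block 3 and 4 were. The call of KRT8 was lost when any 1 library was left out, and 0 smooth muscle markers were called without any 1 library other than DMEM plus fatty acids replicate 2, where the count was 2. The 12 cardiomyocyte markers summed to 30390 to 37618 CPM in RPMI plus B27 and 24401 to 34202 in DMEM plus fatty acids, which overlap, and 0 of the 12 were called by edgeR (3 at an unadjusted p under 0.05, and up to 3 called over the alternatives). In the fit with the block ACTN2 (alpha-actinin, -1.05 ± 0.21, adjusted p 0.0494) and MYH7 (beta myosin heavy chain, -1.32 ± 0.23, adjusted p 0.0359) were called lower. MYH6, also a myosin heavy chain gene, went the other way, from 3504 to 5653 CPM up to 6760 to 10620 CPM. Its log2 fold change was 0.86 ± 0.27 (adjusted p 0.166, 0.0797 with the block). DESeq2 called 3 of the 12, 1 higher and 2 lower. TNNT2, or cardiac troponin T, had at least 3001 CPM in each library of both media. Of the other lists, 0 of 4 tested endothelial markers, 0 of 3 pluripotency markers and 0 of 3 foregut and liver markers were called (2, 0 and 0 at an unadjusted p under 0.05). In the fit with the block KDR was called higher and EMCN (endomucin) and AFP (alpha-fetoprotein) lower. CDH5, which defines endothelium, and NANOG, which defines pluripotent cells, were at 0 in every library of DMEM plus fatty acids. Both had too few counts to enter the test, and CDH5 had only 11, 8 and 1 counts in RPMI plus B27. The pluripotency markers summed to at most 2.86 CPM in a library.

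CDKN2B was lower also relative to the sum of the stromal markers, which is carried mostly by abundant collagens, but not relative to each of them. Of the 14, 4 had more negative log2 fold changes than the -3.43 of CDKN2B, namely DCN, COL6A3 (-4.68), LOX (-3.72) and PDGFRB (-3.63), and 7 of the 14 were lower by a larger fold within replicate 1. Within replicate 2 only DCN (36.9-fold), LUM (12.9-fold), COL6A3 (9.10-fold) and LOX (8.07-fold) exceeded the 8.01-fold of CDKN2B. Within replicate 3 only DCN did, at 19.6-fold against 11.9-fold. Per 1000 CPM of the stromal sum it stood at 6.91, 12.9 and 13.7 CPM in RPMI plus B27 and at 4.24, 4.43 and 2.67 CPM in DMEM plus fatty acids, which do not overlap and differ 2.95-fold in the mean. In replicate 1 the stromal sum differed 9.99-fold and CDKN2B 16.3-fold, and in replicate 3 they differed 2.32-fold and 11.9-fold. Relative to the smooth muscle sum the difference in CDKN2B was 3.78-fold, and relative to the cardiomyocyte sum 9.78-fold. CDKN2A per 1000 CPM of the stromal sum went from 0.312 to 1.13 CPM down to 0 to 0.288 CPM, while CDKN2D went the other way, from 1.04 to 1.28 up to 1.83 to 3.74. The part of the stromal cells in these differences was not tested.

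**Figure D4:**
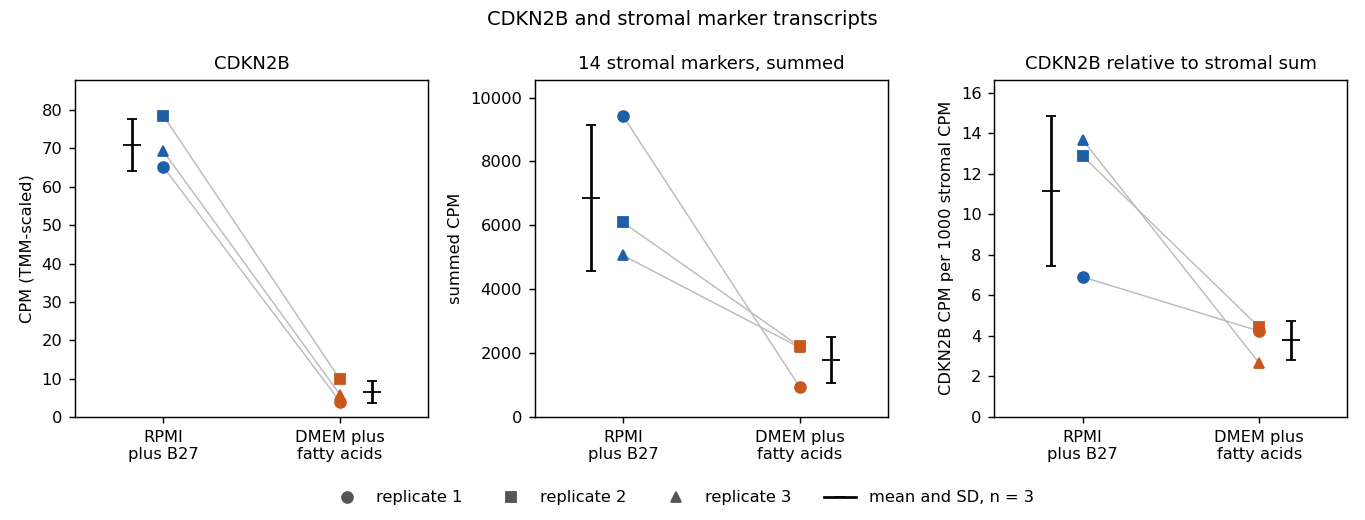
CDKN2B (TMM-scaled CPM), the summed CPM of 14 fibroblast and stromal markers, and CDKN2B per 1000 CPM of that sum, by library, with lines joining the same replicate number and bars for the mean and SD of 3 libraries. All 3 quantities are lower in each library of DMEM plus fatty acids, and the ratio in RPMI plus B27 replicate 1 (6.91) is the nearest to the other medium.

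Genes of the TGF-beta pathway, which is known to induce CDKN2B, were mostly not called. Of 20 listed genes, 2 were called lower and 0 higher by edgeR, beside 1.07% and 0.292% of all tested genes. The median log2 fold change of the 20 was -0.33, beside 0.01 for all genes. At an unadjusted p under 0.05 there were 11 of the 20, beside 17.7% of all tested genes. The media did not overlap for 8 of the 20, beside 25.6% of all tested genes in either direction. The called genes were PMEPA1, a feedback inhibitor (-1.67 ± 0.23, adjusted p 0.0338), and TGFBI, a secreted matrix protein (-4.34 ± 0.66, adjusted p 0.0402). The count was 3 without RPMI plus B27 replicate 3 and 0 without any other library. CCN2, a matricellular growth factor, had -3.01 ± 0.66 (adjusted p 0.0808, 0.0237 with the block). With the block 6 of the 20 passed, 5 lower and 1 higher, beside 3.42% and 1.36% of all tested genes. The higher one was ID2, an inhibitor of DNA binding (0.72 ± 0.24, adjusted p 0.182 without the block and 0.0455 with it). The ligands, receptors and signal-carrying SMADs were not called in either fit. TGFB1 had -0.53 ± 0.22, TGFBR1 -0.51 ± 0.16, SMAD2 0.52 ± 0.15 and SMAD3 -0.25 ± 0.14 on the log2 scale. CDKN2B per 1000 CPM of the summed list differed 7.28-fold between the means of the media.

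Regulators known to act on the inhibitors were not called, 0 of 16 (1 at an unadjusted p under 0.05, and 0 under each of the 12 alternatives). Among those with the smallest p were KDM6B, a histone demethylase (-0.68 ± 0.22, adjusted p 0.180), FOXO3 (0.25 ± 0.11, 0.300) and CBX7, a Polycomb protein that represses CDKN2A and CDKN2B (-0.44 ± 0.25, 0.407). SKP2, which marks p27 for destruction, had -0.27 ± 0.20 (0.524).

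The targets of INK4 proteins were measured as well. CDK4 had 41.0, 46.1 and 48.0 CPM in RPMI plus B27 and 56.1, 59.7 and 62.1 CPM in DMEM plus fatty acids, which do not overlap (0.40 ± 0.12, adjusted p 0.147). CDK6 had 202.1 to 244.5 CPM in RPMI plus B27 and 157.4 to 198.2 CPM in DMEM plus fatty acids (-0.36 ± 0.14, adjusted p 0.235). CCND1, or cyclin D1, had 234.2, 230.6 and 233.5 CPM against 152.5, 163.3 and 167.1 CPM (-0.53 ± 0.10, adjusted p 0.0609, 0.0449 with the block). CCND2 had 307.6, 169.5 and 418.6 CPM against 120.6, 79.7 and 201.4 CPM, lower within each replicate number but overlapping between media (-1.16 ± 0.41, adjusted p 0.209, 0.0124 with the block). CCND3 had 0.27 ± 0.31 (0.704). Of the 13 CDKs and cyclins, 0 were called by edgeR without the block (4 at an unadjusted p under 0.05, beside 17.7% of all genes) and 2 with it, CCND1 and CCND2.

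Among 13 RB and E2F genes, which act downstream of the inhibitors, 0 passed in edgeR where 1.36% of all genes did. At an unadjusted p under 0.05 there were 0 of 13, beside 17.7% of all genes, with a median of -0.01, and RB1 itself had 106.0 to 136.0 CPM in RPMI plus B27 and 113.8 to 131.0 CPM in DMEM plus fatty acids.

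CDKN3 and CDKN2C stood beside the transcripts of dividing cells. The 30 S phase and mitosis genes summed to 1405, 1409 and 2669 CPM in RPMI plus B27 and to 891.3, 1059 and 2896 CPM in DMEM plus fatty acids. Replicate 3 was highest in both media, and 0 of the 30 were called (0 at an unadjusted p under 0.05, 0 under each of the 12 alternatives; median log2 fold change -0.25). MKI67, the Ki-67 antigen of cycling cells, had 71.6, 66.1 and 165.5 CPM against 43.0, 43.8 and 205.8 CPM. Per 100 counts of MKI67 there were 10.4 to 19.5 counts of CDKN3 in RPMI plus B27 and 8.89 to 14.4 in DMEM plus fatty acids. Within replicate 1 CDKN3 was 3.21-fold lower in DMEM plus fatty acids and the sum 1.58-fold lower, within replicate 2 they were 1.99-fold and 1.33-fold lower, and within replicate 3 both were slightly higher, 1.06-fold for CDKN3.

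**Figure D5:**
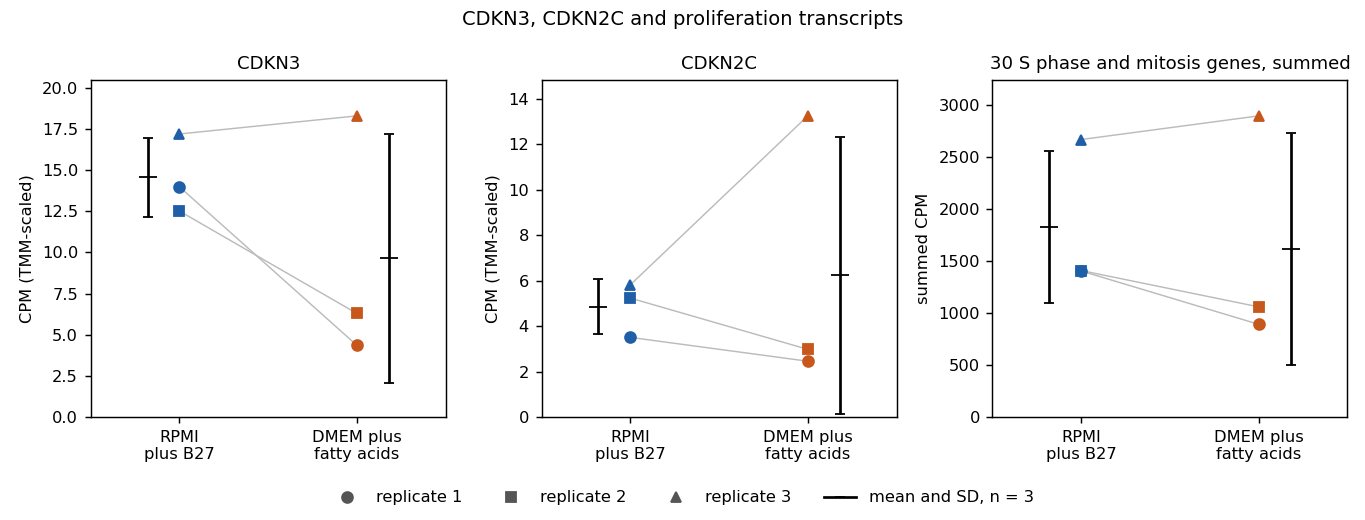
CDKN3 and CDKN2C (TMM-scaled CPM) and the summed CPM of 30 S phase and mitosis genes, by library, with lines joining the same replicate number and bars for the mean and SD of 3 libraries. Replicate 3 of DMEM plus fatty acids is the highest library in all 3 panels (18.3, 13.2 and 2896 CPM).

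The transcripts most like CDKN2B over the 6 libraries, by Pearson's r of log2 CPM among tested genes that averaged 1 CPM or more, were TNFRSF11B (osteoprotegerin, r = 0.999), FURIN (a proprotein convertase, 0.998), SBSPON (0.998), HEG1 (0.996) and ARPC2 (a subunit of the Arp2/3 complex, 0.996). All 5 were lower in DMEM plus fatty acids, by fitted log2 fold changes of -2.59 for TNFRSF11B, -0.43 for FURIN, -2.35 for SBSPON, -0.72 for HEG1 and -0.36 for ARPC2. Those of CDKN3 were NEK2 (a mitotic kinase, 0.996), CENPH (a kinetochore protein, 0.995), UBE2C (0.992), CDK1 (0.992) and ATAD2 (0.992). For CDKN2B the libraries fall into 2 groups by medium, so r mainly ranks genes by how cleanly the media separate. These values describe 6 libraries and carry no test.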

How the data were processed

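Per the labels' protocols, RNA was purified on columns with DNase treatment, and the mRNA kit kept strand. The authors deposited raw counts for each gene symbol, with replicates in separate files. STAR, HTSeq and hg38 are named in the submitters' processing notes, without versions, and the annotation and strand setting are not given in the sources used here. The 5 summary rows were left out. Of each library, 5.44% to 7.57% of reads fell in no gene, those of more than 1 gene 3.90% to 4.15%, and those aligned to more than 1 place 3.05% to 4.10%.

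Groups and replicate numbers came from the sample titles. Counts were filtered with filterByExpr (minimum count 10, total 15), scaled by TMM and tested with the quasi-likelihood test of edgeR 4.0.16 in R 4.3.3 over all 6 libraries without covariates. P-values were adjusted by Benjamini-Hochberg over 16107 genes, with a threshold of 0.05. SEs are those implied by the F statistic. The script was tested on simulated data. Deviations from the medium mean correlated at 0.313 to 0.428 between libraries of the same replicate number and at -0.242 to -0.136 between others. No label says what libraries of the same number share. The main fit leaves this pairing out, and calls are those of the main fit unless the block or another alternative is named. A fit with the number as a block is given where it changes a call. It called 770 of all tested genes, against 219 in the main fit. P-values measure the spread between these libraries. Other alternatives were DESeq2 1.42.0, 2 other scalings, 2 other filters and leaving out each library.

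Lengths are merged exons of GENCODE release 29, and promoter sequences are RefSeq's. Without molecular identifiers, the limit of 3 counts for a count of 0 covers counting error only. Named genes are all members, up to 4 members of each other list with the smallest p, genes an inhibitor's account turns on, and the 5 genes most like CDKN2B and CDKN3. Not all genes this rule selects are printed. The members and lists were chosen with earlier results of these data known.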

Additional observations from a re-analysis of the deposited data

How the results depend on the processing

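The log2 fold change of CDKN2B was -3.84 to -3.19 over all 12 alternatives, given as a description. Among the 7 inhibitors other than CDKN2B, the gene the family was picked for, DESeq2 called CDKN2A and CDKN2D. Only CDKN2A of these 7 was called without a filter and with the replicate block. When 1 library was left out, 0 of these 7 were called. The count of all called genes was 1212 by DESeq2, 539 without a filter, 119 with at least 10 counts in every library, 770 with the replicate block, and 3 to 131 when 1 library was left out, against 219. The causes were not tested, except that fewer libraries entered the last fits. CDKN2A could not be tested with at least 10 counts in every library, because 1 library had 0.

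Small uncalled differences changed sign. CDKN1A had -0.11 to 0.21 when 1 library was left out, with -0.11 without RPMI plus B27 replicate 1, -0.01 without DMEM plus fatty acids replicate 2 and -0.01 without replicate 3 of that medium. CDKN1C had 0.090 by total counts alone, 0.0060 with the replicate block, and -0.16 to 0.19 when 1 library was left out (0.19 without RPMI plus B27 replicate 1). CDKN2C had -0.015 with the replicate block, and -0.83 (without DMEM plus fatty acids replicate 3) to 0.73 when 1 library was left out. Scaling by total counts alone moved the median of all genes from 0.01 to 0.12. Apart from CDKN2A, the replicate block changed no call of an inhibitor.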
